A study of Mus musculus with 18 samples.

Results

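The liver transcriptome of lean mice on chow (CD) was compared between the middle of the night (ZT18) and the middle of the day (ZT6), with zeitgeber time (ZT) counted in hours from lights on. The comparison was chosen by the labels and rests on 6 of the 18 arrays of the study, 3 CD livers at ZT6 and 3 at ZT18. Male C57BL/6J mice entered the study at 4 weeks of age, were housed under 12 h of light and 12 h of darkness and ate freely. CD mice received chow with 18% of its energy from fat for 8 weeks and through 3 more weeks in which, per the study's design scheme, mice not given NAD+ were injected with saline at ZT11. The other arrays hold obese mice on a diet with 53% of its energy from fat, injected at ZT11 with saline (HF) or with NAD+ at 50 mg/kg (HFN), again 3 livers at each time. RNA from whole liver tissue was hybridised to Clariom D arrays, which probe coding and noncoding transcripts, and the deposited values are log2 signals. With 2 times of day, a difference shows that the levels at those times differ, and neither a peak time nor an amplitude of a rhythm can be read from it.

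Mice are active and feed mostly at night, so ZT6 falls in their rest phase and ZT18 in their active phase. In each liver cell a molecular clock runs through feedback loops: CLOCK and BMAL1, the product of Arntl, switch on genes that carry E-boxes in their promoters, and the period and cryptochrome proteins made from such genes repress that activity. A second loop sets the REV-ERB repressors against ROR activators on Arntl itself, and a further loop sets DBP, TEF and HLF against NFIL3 on D-box genes. Feeding, body temperature and hormones also drive daily changes in the liver, among them those of heat shock chaperones and of genes for glycogen, sterols and fat.

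In all, 248 of 65956 transcript clusters, the array's unit for 1 transcribed locus, passed the test between ZT6 and ZT18, a share of 0.376%. The test asked for a p from limma under 0.05 after Benjamini-Hochberg adjustment and for a log2 fold change beyond 0.32 in size. Of the 248, 107 were higher at ZT18 (0.162% of those tested) and 141 were lower (0.214%). Without the adjustment 2738 clusters (4.15%) met both limits. The median size of the 248 changes was a log2 fold change of 0.97, and 118 clusters differed by over 2-fold and 29 by over 4-fold. A current symbol of a single gene was found for 198 of the 248, of which 186 are protein coding. All 248 had the 3 ZT18 livers beyond the 3 ZT6 livers, as had 9.98% of all clusters, and the median log2 fold change of all clusters was 0.01. Changes below are log2 fold changes of ZT18 over ZT6, with the standard error (SE) of the fit and n = 3 livers at each time.

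**Figure D1:**
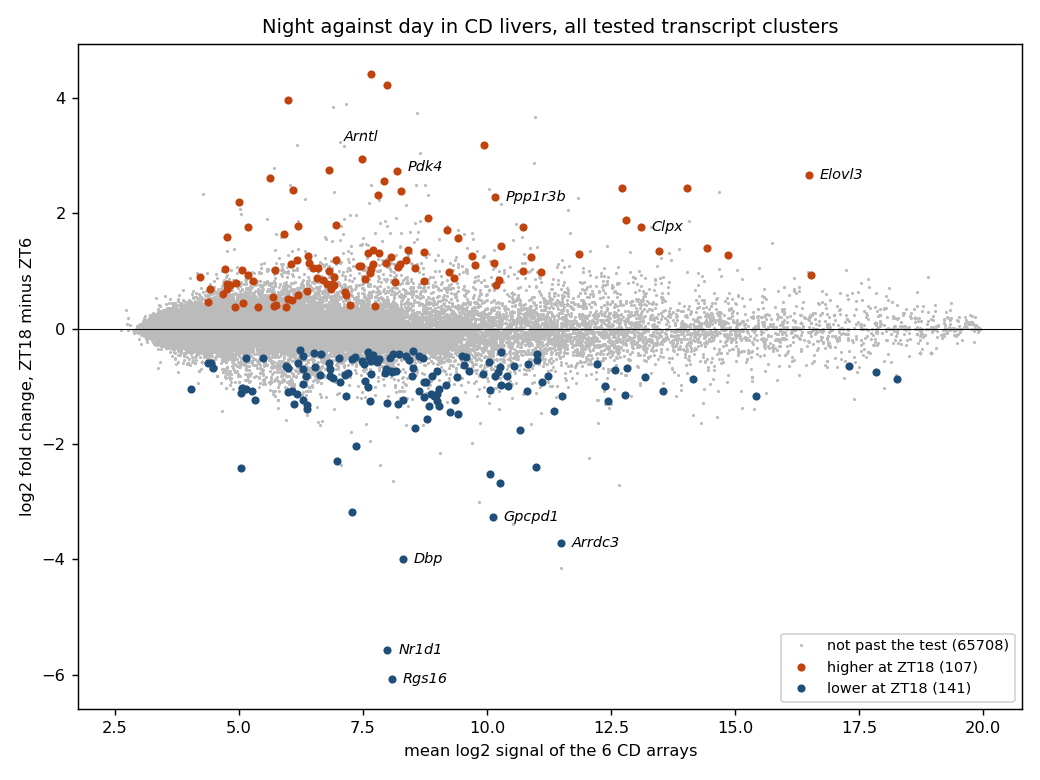
Log2 fold change of ZT18 over ZT6 (vertical axis) against the mean log2 signal of the 6 CD arrays (horizontal axis) for each tested transcript cluster. The 107 clusters that passed the test with higher signal at ZT18 and the 141 with lower signal are coloured, and Rgs16 and Nr1d1 lie lowest.

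The arrays were not all alike. On CD ZT6 replicate 3 and CD ZT18 replicates 2 and 3 the array median of the negative-control probe sets was 4.91 to 4.95 on the log2 scale, and on the other 3 CD arrays it was 4.60 to 4.67. Neat1, a noncoding RNA kept in the nucleus, moved with it: its log2 signal was 8.30, 7.44 and 11.64 at ZT6 and 8.08, 15.14 and 15.16 at ZT18. High-background arrays thus made up 1 of 3 livers at ZT6 and 2 of 3 at ZT18, and the part of this difference in each result was not tested. When arrays of high and low background were given a block of their own, an alternative chosen after the data were seen, 357 clusters passed, among them 228 of the 248. Without the 3 high-background CD arrays 69 passed, with 39 of the 248 among them, in a fit where the lone ZT18 liver is assumed to vary like the other groups. Without CD ZT18 replicate 1 the count was 575, and without CD ZT18 replicate 2 it was 132. Both CD night arrays left in the fit with 575 were of high background, and the part of this in that count was not tested. The log2 signals of Alb, Apob, Trf and Cyp2e1, which hepatocytes express strongly, stood at the ceiling of the scale, 19.93, on every CD array, so the tissue carried its defining transcripts, and changes in those genes could not be measured.

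**Figure D2:**
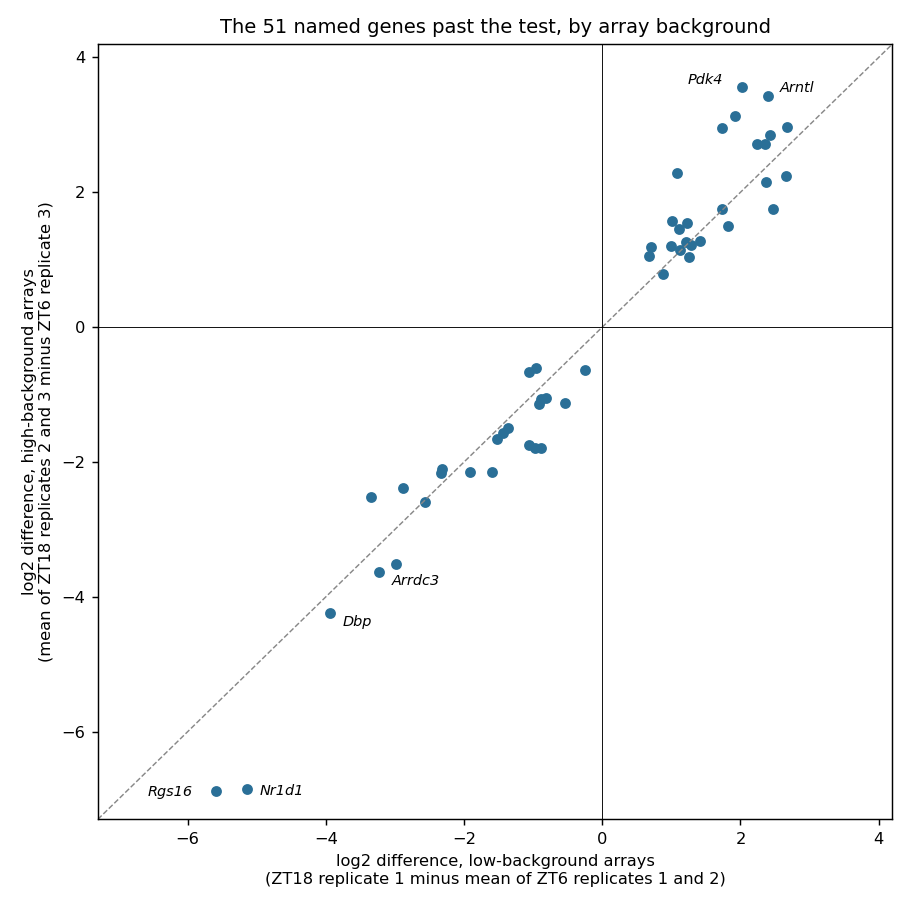
Log2 difference between ZT18 and ZT6 for the 51 genes named by rule that passed the test, computed within the high-background CD arrays (vertical axis) and within the low-background CD arrays (horizontal axis). The dashed line marks equal differences. Since the groups of these genes do not overlap, points cannot fall on opposite sides of 0, and the sizes are what can be compared.

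Among the activators of the clock, Arntl was higher at night. Its log2 signal was 6.23, 6.06 and 5.71 in the livers at ZT6 and 8.54, 9.02 and 9.26 at ZT18, a rise of 2.94 (SE 0.18, adjusted p = 1.71e-06), or 7.67-fold. The lowest night liver thus lay well above the highest day liver. Clock, whose protein pairs with BMAL1, had values of 12.18, 11.96 and 11.72 at ZT6 and 12.59, 12.44 and 12.71 at ZT18. The groups did not overlap, and the difference of 0.63 (SE 0.16) did not pass the test (adjusted p = 0.142), although it did with the background block (0.73, adjusted p = 0.0335). With the negative-control median as a covariate, Clock again did not pass (0.70, adjusted p = 0.0676). Npas2, which can stand in for CLOCK, differed by 0.47 (SE 0.23, adjusted p = 0.789). Of the 5 measured genes for activators and ROR receptors, Arntl was the 1 that passed, and the median of the list was 0.47.

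The genes for the repressors moved in both directions. Cry1, a cryptochrome that blocks CLOCK and BMAL1, had log2 signals of 5.56, 5.56 and 5.21 at ZT6 and of 8.24, 8.07 and 8.29 at ZT18. It rose by 2.75 (SE 0.16, adjusted p = 1.71e-06), with an SD of 0.11 among the 3 night livers. Ciart, which encodes an inhibitor of the same activators, went the other way, from 5.43, 5.97 and 5.59 at ZT6 to 4.81, 4.53 and 4.51 at ZT18. It fell by 1.05 (SE 0.21, adjusted p = 0.0494), a narrow pass, and lost the call with any of 13 arrays left out (adjusted p up to 0.203, without CD ZT6 replicate 2) and with the background block (adjusted p = 0.0513). Bhlhe41, the E-box repressor DEC2, fell by 1.24 (SE 0.18, adjusted p = 0.00761). Its signals of 4.79, 4.74 and 4.57 at ZT18 were close to the negative-control medians of those arrays, so the night level is near the limit of detection.

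The other repressors did not pass. Per1 differed by 0.15 (SE 0.26, adjusted p = 0.99), with values of 5.50, 5.85 and 6.73 at ZT6 and 5.78, 6.34 and 6.41 at ZT18 that overlap fully, and its sign turned with the background block. Per2 differed by 0.88 (SE 0.30, adjusted p = 0.436) and Cry2 by 0.37 (SE 0.20, adjusted p = 0.814), both towards the night. Per3 lay at 6.19, 6.42 and 7.03 at ZT6 and at 5.50, 5.78 and 5.44 at ZT18. Its difference of -0.98 (SE 0.26, adjusted p = 0.182) did not pass, but did with the background block (-1.19, adjusted p = 0.00912). Bhlhe40, the gene of DEC1, differed by -0.81 (SE 0.23, adjusted p = 0.226) and also passed with that block (-0.97, adjusted p = 0.0401). In all, 1 of the 8 repressor genes rose, 2 fell and 5 did not pass.

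Promoters of Ciart and Cry1 are shown because both hold the E-box that CLOCK and BMAL1 bind, yet the genes moved in opposite directions between these times. The windows run from 250 bases before to 50 after the annotated RNA start, from RefSeq on build GRCm38.p6, and E-boxes (CACGTG, the same on both strands) are in capitals. Ciart lies on the minus strand at chr3:95882179-95882478 and Cry1 on the minus strand at chr10:85185005-85185304.
Ciart: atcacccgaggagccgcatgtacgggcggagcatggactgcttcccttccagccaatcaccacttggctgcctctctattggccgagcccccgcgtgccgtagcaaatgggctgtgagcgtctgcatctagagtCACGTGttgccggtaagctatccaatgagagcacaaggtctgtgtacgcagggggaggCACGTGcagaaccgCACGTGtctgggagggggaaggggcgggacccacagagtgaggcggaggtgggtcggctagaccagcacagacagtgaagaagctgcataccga
Cry1: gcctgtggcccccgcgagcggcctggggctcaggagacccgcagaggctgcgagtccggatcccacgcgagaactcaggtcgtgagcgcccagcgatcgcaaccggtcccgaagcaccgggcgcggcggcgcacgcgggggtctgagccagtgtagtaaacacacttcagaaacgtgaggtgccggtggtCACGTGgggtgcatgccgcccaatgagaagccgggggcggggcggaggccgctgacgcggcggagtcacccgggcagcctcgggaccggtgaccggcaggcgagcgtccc
The Ciart window held 3 E-boxes, beginning 116, 58 and 44 bases upstream of the start, and the Cry1 window held 1, beginning 60 bases upstream. Windows of Nr1d1, Nr1d2 and Dbp, clock genes that fell at night, held none. Those of Tef and Bhlhe41, which also fell, held E-boxes, as did 1 of the 2 windows of Per1. Of 27025 mouse genes with such a window, 8.09% held a CACGTG, and of the 18284 tested genes with a window, 8.95%. Among the 71 named genes higher at ZT18, 58 had a window and 11 of those held it (19%), and among the 126 lower at ZT18, 91 had a window and 15 held it (16.5%). A match describes the letters and not binding by the clock in these livers.

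Both REV-ERB receptors, which repress Arntl and other genes with ROR elements, fell at night. Nr1d1 (REV-ERBα) had log2 signals of 9.91, 10.24 and 12.19 at ZT6 and of 4.93, 5.49 and 5.17 at ZT18. It fell by 5.58 (SE 0.59, adjusted p = 0.000612), or 47.9-fold in signal, and ZT6 replicate 3 stood well above the other day livers. The night signals lay close to the negative-control medians, so background limits how large a fold can be measured. It fell by 5.14 within the low-background arrays and fell by 6.86 within the high-background arrays. Nr1d2 (REV-ERBβ) was tighter, at 11.71, 11.73 and 11.41 at ZT6 against 9.16, 9.05 and 8.58 at ZT18. It fell by 2.69 (SE 0.15, adjusted p = 1.42e-06), the lowest adjusted p of the named genes.

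Of the 4 regulators that bind D-boxes, the activators Dbp and Tef fell and the repressor Nfil3 rose. Dbp went from 9.70, 10.61 and 10.61 at ZT6 to 6.21, 6.49 and 6.24 at ZT18. It fell by 3.99 (SE 0.26, adjusted p = 3.57e-06), or 15.9-fold. Tef had values of 7.04, 7.15 and 7.55 at ZT6 and 6.29, 6.62 and 6.38 at ZT18, and fell by 0.82 (SE 0.15, adjusted p = 0.0342). Its call was lost with any of 9 arrays left out (adjusted p up to 0.131, without CD ZT18 replicate 3). Nfil3, the repressor E4BP4, had log2 signals of 5.56, 5.68 and 5.26 at ZT6. At ZT18 they were 6.90, 6.73 and 6.22, a rise of 1.12 (SE 0.15, adjusted p = 0.00519). Hlf, the other activator, differed by -0.16 (SE 0.13, adjusted p = 0.951), with overlapping groups. The arms of the D-box loop thus had opposite signs in these livers for 3 of 4 members.

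The Nfil3 promoter is shown because, like Arntl, Nfil3 rose while the REV-ERB genes fell, and its window holds the core of the element that REV-ERB and ROR share. It lies on the minus strand at chr13:52980990-52981289 (RefSeq, GRCm38.p6). The capitals mark TGACCTA, the reverse complement of the core TAGGTCA, beginning 12 bases upstream of the start.
Nfil3: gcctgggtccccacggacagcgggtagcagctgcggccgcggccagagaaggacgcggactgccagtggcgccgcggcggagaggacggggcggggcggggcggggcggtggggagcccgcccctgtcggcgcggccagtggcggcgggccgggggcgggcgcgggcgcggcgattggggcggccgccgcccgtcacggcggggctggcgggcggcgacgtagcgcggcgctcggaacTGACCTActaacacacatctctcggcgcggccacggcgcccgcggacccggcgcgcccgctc
The core, searched on both strands, was present in 2.97% of all genes with a window and in 2.75% of the tested ones. It was present in 5 of the 58 genes with a window higher at ZT18 (8.62%) and in 4 of the 91 lower (4.4%). Of the 2 windows listed for Arntl, 1 held it, 30 bases downstream of its start. A D-box (TTANGTAA, both strands) was present in 3.45% of the genes with a window higher at ZT18 and in 3.3% of those lower. Of all genes with a window 2.72% held a D-box, and of the tested ones 2.55%.

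**Figure D3:**
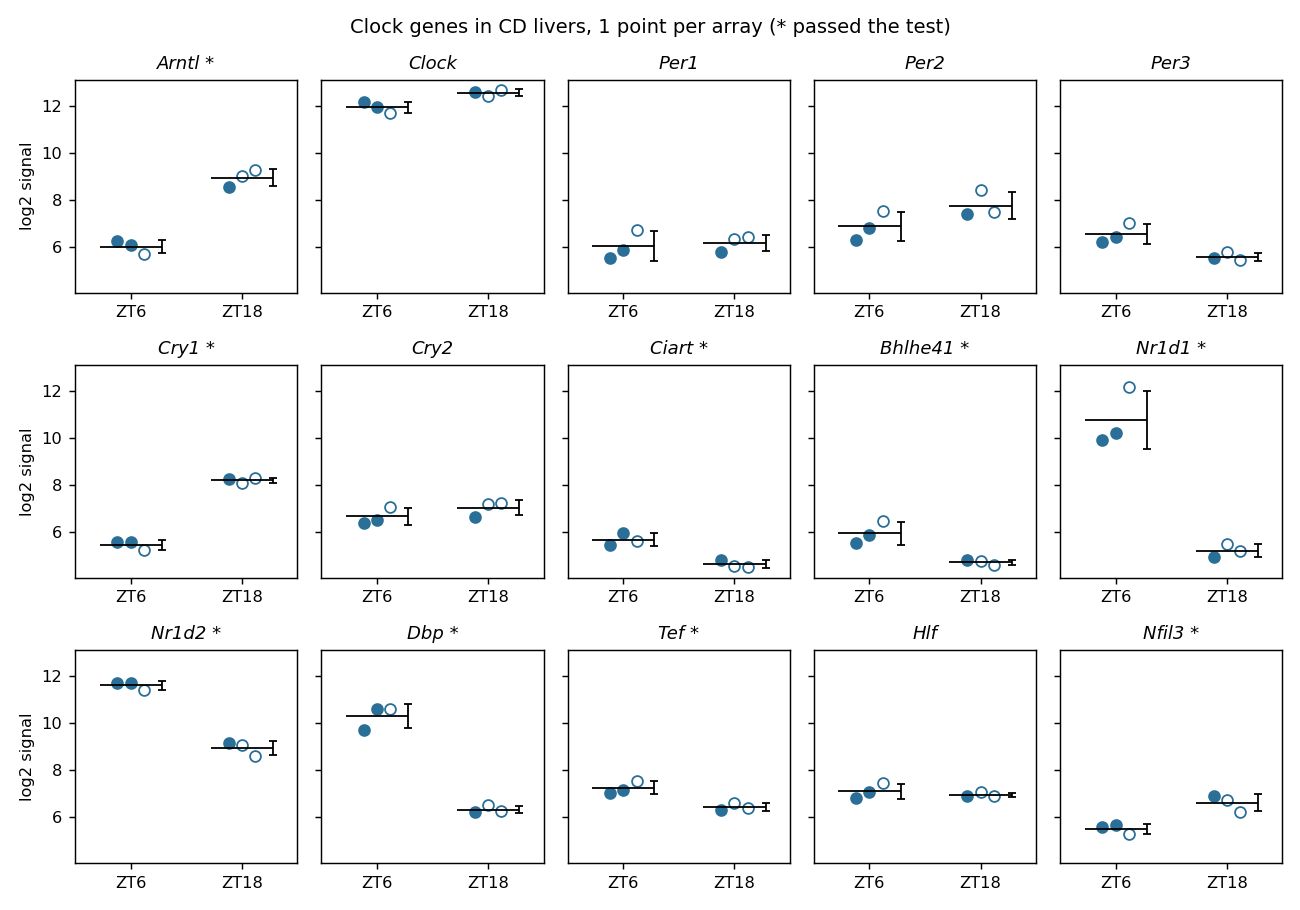
Log2 signal of 15 clock genes in each CD liver at ZT6 and ZT18 (vertical axis, shared by all panels), with the mean as a line and the SD as an error bar (n = 3). Open points are the high-background arrays, and an asterisk marks genes that passed the test, such as Arntl and Cry1, which rose, and Nr1d1, Nr1d2 and Dbp, which fell.

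Genes known as outputs of the liver clock held the largest measured change. Rgs16, a regulator that shortens signalling by G proteins, had log2 signals of 11.13, 10.35 and 11.88 at ZT6. At ZT18 it stood at 5.15, 5.12 and 4.88, near the negative-control medians. It fell by 6.07 (SE 0.75, adjusted p = 0.00246), or 67.1-fold in signal, from a clear signal to about the limit of detection, so here too background limits the fold that can be measured. Elovl3, an elongase of very long fatty acids, rose from 15.50, 14.92 and 15.05 to 17.13, 17.82 and 18.53, by 2.67 (SE 0.38, adjusted p = 0.00658). Lonrf3, a RING finger protein, rose by 1.65 (SE 0.19, adjusted p = 0.00174), with night values of 6.85, 6.63 and 6.70 against 5.05, 5.02 and 5.16 by day. Of 19 measured genes in a list of clock-driven liver outputs, 4 rose, 3 fell and 12 did not pass. Without the 3 high-background CD arrays 1 of the 7 kept its call, Gpcpd1, described next.

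A pair of enzymes of choline metabolism changed in opposite directions. Gpcpd1, a phosphodiesterase that splits glycerophosphocholine and so frees choline, fell from 12.04, 11.28 and 11.89 at ZT6 to 8.68, 8.06 and 8.69 at ZT18. It fell by 3.26 (SE 0.24, adjusted p = 1.18e-05), or 9.59-fold. Chka, the choline kinase that commits choline to phosphatidylcholine, rose from 6.69, 6.60 and 6.63 to 8.88, 9.22 and 9.47. This was 5.86-fold (2.55, SE 0.15, adjusted p = 1.71e-06), and both genes kept their calls in every leave-one-out fit and without the high-background CD arrays. The other 11 measured genes of the list did not pass, and its median was 0.10.

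Other large changes fell outside the clock lists. Arrdc3, an arrestin-domain protein that acts in receptor trafficking, fell from 14.28, 12.85 and 12.93 to 10.34, 10.12 and 8.47, by 3.71 (SE 0.56, adjusted p = 0.00825). Clec2h, a C-type lectin-like gene, fell by 3.17 (SE 0.49, adjusted p = 0.00964), from 9.96, 8.54 and 8.10 to 5.91, 5.60 and 5.56. The day livers were spread, with an SD of 0.80 for Arrdc3 and 0.97 for Clec2h, and in both genes replicate 1 was the highest of them. Narf, the prelamin A recognition factor, fell by 1.57 (SE 0.15) with night values of 8.02, 7.99 and 8.03, and Pgap1, an enzyme that remodels the lipid anchors of membrane proteins, by 1.48 (SE 0.17). Unc93a2 fell by 2.04 (SE 0.33) and Tns2, a tensin of cell adhesions, by 1.72 (SE 0.30). These 4 had adjusted p from 0.000163 to 0.0201, and the calls of Unc93a2 and Tns2 were lost without CD ZT6 replicate 2 (adjusted p = 0.0607 and 0.063) or replicate 3 (0.0568 each), that of Tns2 also without CD ZT18 replicate 3 (0.0563). Among the rises, Nat8f5, an acetyltransferase-family gene, gained 2.38 (SE 0.39), Gm19522, a long noncoding RNA, 2.32 (SE 0.29), Nedd4l, a ubiquitin ligase, 1.57 (SE 0.26) and E030018B13Rik 2.41 (SE 0.45). Their adjusted p ran from 0.00262 for Gm19522 to 0.0324 for E030018B13Rik, which lost its call with any of 8 arrays left out (up to 0.143, without CD ZT18 replicate 3). Nat8f5 and Nedd4l each lost theirs with any of 4 arrays left out (up to 0.0758 and 0.0822, both without CD ZT18 replicate 2).

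Chaperones of the cytosol, which fold proteins and are induced by heat shock factor when temperature or load rises, were a group with calls in 1 direction. Of 21 measured members 6 rose, none fell and 15 did not pass. Of the 21 differences 18 were above 0, as were 54.3% of those of all clusters. The median was 0.50, against 0.01 for all clusters. Hsph1, an HSP110-class partner of HSP70, rose from 7.93, 7.90 and 7.70 to 10.38, 9.88 and 9.03, by 1.92 (SE 0.29, adjusted p = 0.00964). Hsp90aa1, the inducible HSP90, rose from 12.43, 11.99 and 11.17 to 14.58, 13.36 and 13.30, by 1.88 (SE 0.34, adjusted p = 0.028). In both genes ZT18 replicate 1, the low-background night array, was the highest of the night livers. Hsp90aa1 has near copies in the genome, and 2 clusters shared between it and the pseudogenes Gm5844 and Gm12346 rose by 2.43 and 2.44 (SE 0.43 and 0.42), so signal may be split among them.

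Partners of HSP90 and HSP70 rose alongside. Hspa4l, another HSP110-class gene, rose by 1.13 (SE 0.20, adjusted p = 0.0256), Fkbp4, the immunophilin FKBP52, by 1.01 (SE 0.15, adjusted p = 0.00699) and Stip1, which links HSP70 to HSP90, by 0.98 (SE 0.17, adjusted p = 0.021). The small chaperone Hspb1 (HSP25) had log2 signals of 5.74, 6.14 and 5.99 at ZT6. At ZT18 they were 6.65, 6.98 and 7.38, a rise of 1.05 (SE 0.18, adjusted p = 0.0192). Its pseudogene Hsp25-ps1 rose by 1.79 (SE 0.28, adjusted p = 0.0108), a call lost with any of 3 arrays left out (up to 0.0643, without CD ZT18 replicate 2). Probes for such close copies may not tell them apart. Bag3, Chordc1 and Ahsa1, further cochaperones, differed by 0.97, 0.89 and 0.71 (SE 0.33, 0.29 and 0.17) and did not pass, though Ahsa1 did with the background block (0.82, adjusted p = 0.027). Hspa8, the constitutive HSP70, stood at the ceiling of 19.93 on all night arrays, so its difference of 0.20 is not a full measure. Leaving out 1 array left between 2 and 6 calls in the list, the fewest without CD ZT6 replicate 3, where Hsp90aa1, Stip1, Hspa4l and Hspb1 missed the threshold (adjusted p = 0.0907, 0.0837, 0.0875 and 0.0564), and without the 3 high-background CD arrays 5 remained, all but Hspb1.

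The Hspb1 promoter is shown because it carries a pair of sites of the kind that heat shock factor binds. It lies on the plus strand at chr5:135887669-135887968 (RefSeq, GRCm38.p6), with the heat shock element GAANNTTC, the same on both strands, in capitals.
Hspb1: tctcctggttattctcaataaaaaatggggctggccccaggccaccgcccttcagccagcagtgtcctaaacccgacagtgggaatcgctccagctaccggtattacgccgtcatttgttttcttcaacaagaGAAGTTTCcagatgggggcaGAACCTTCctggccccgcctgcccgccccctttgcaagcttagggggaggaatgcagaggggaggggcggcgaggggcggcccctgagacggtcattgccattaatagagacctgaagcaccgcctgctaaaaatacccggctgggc
The elements begin 117 and 97 bases upstream of the start. Of the 17 listed chaperone genes with a window, 8 held the element (47.1%), as did 3 of the 5 with a window among the 6 that rose, Hspb1, Hsph1 and Fkbp4. Of all 27025 mouse genes with a window, 9.04% held it, and of the 18284 tested genes with a window, 8.48%.

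**Figure D4:**
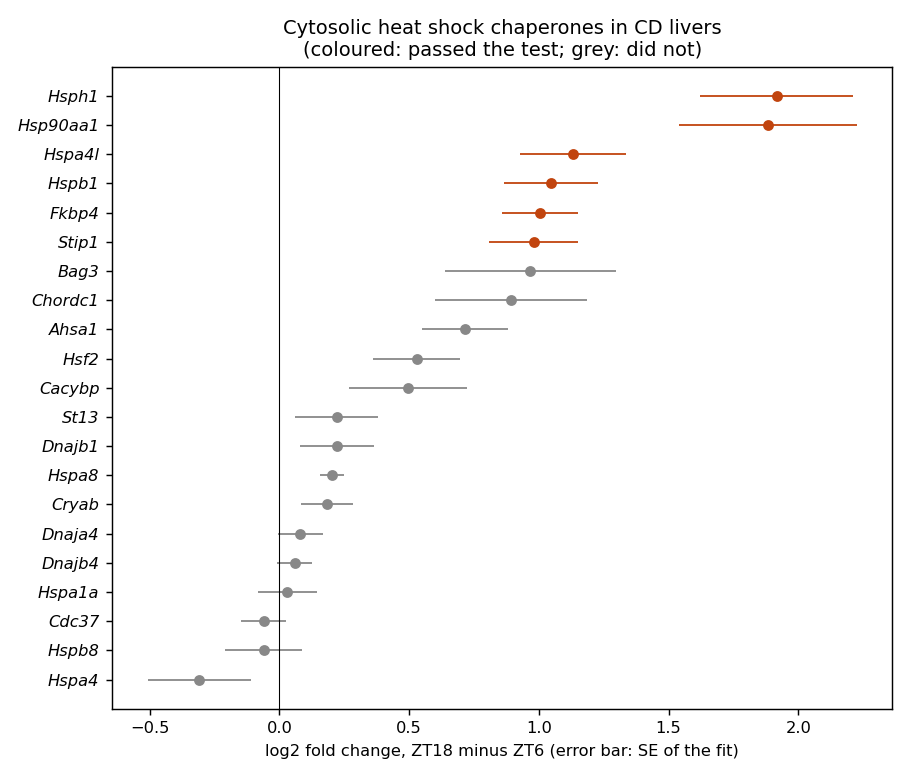
Log2 fold change of ZT18 over ZT6 (horizontal axis, SE of the fit as error bar, n = 3 livers per time) for the 21 measured cytosolic heat shock chaperones and cochaperones. The 6 coloured genes passed the test, from Stip1 at 0.98 to Hsph1 at 1.92.

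In other compartments calls were few. Clpx, the unfoldase of the mitochondrial ClpXP protease, rose by 1.76 (SE 0.27, adjusted p = 0.00964), from 12.72, 11.71 and 12.25 to 13.95, 13.44 and 14.57, and was the 1 call among 13 mitochondrial chaperones and proteases (median -0.04). None of the 23 chaperones and stress genes of the endoplasmic reticulum passed limma's test, with 6 at an unadjusted p under 0.05. Creld2, a secreted marker of such stress, differed by 1.64 (SE 0.39, adjusted p = 0.114) and the chaperone Hyou1 by 0.97 (SE 0.24, adjusted p = 0.129). With the background block Creld2 passed (1.88, adjusted p = 0.0267).

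Genes for sterol export fell at night. ABCG5 and ABCG8 together pump cholesterol into bile. Abcg8 had log2 signals of 12.10, 11.98 and 12.49 at ZT6 and 9.15, 9.93 and 10.28 at ZT18. It fell by 2.40 (SE 0.32, adjusted p = 0.00462). Abcg5, its neighbour in the genome, went from 11.52, 11.17 and 11.95 to 9.75, 9.76 and 9.85, and fell by 1.76 (SE 0.23, adjusted p = 0.00397). The lowest day value of each was over 1 log2 unit above its highest night value. Slc10a1, the importer of bile acids NTCP, fell by 0.75 (SE 0.15, adjusted p = 0.0451), a call lost with any of 16 arrays left out (up to 0.185, without CD ZT18 replicate 3). Of 12 measured sterol and bile transporters 3 fell, none rose and 9 did not pass, with a median of -0.38.

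Of 13 measured genes of bile acid synthesis and its feedback, 1 passed. It was Klb, the coreceptor β-Klotho through which FGF15 acts on hepatocytes. Klb fell from 9.91, 10.02 and 9.99 to 8.61, 8.78 and 8.20, by 1.45 (SE 0.23, adjusted p = 0.0118), and lost the call without CD ZT6 replicate 2 or CD ZT18 replicate 3 (adjusted p up to 0.0665). Cyp7a1 and Cyp8b1, chosen here after their values were seen, encode the rate-limiting enzyme of bile acid synthesis and the enzyme for cholic acid. Cyp7a1 stood at 14.43, 12.88 and 13.13 at ZT6 and at 17.07, 15.51 and 14.99 at ZT18, and the difference of 2.38 (SE 0.54) did not pass (adjusted p = 0.0917). Cyp8b1 differed by 1.87 (SE 0.38, adjusted p = 0.0504). In both genes the highest day liver lay below the lowest night liver, and both passed with the background block (2.79 and 1.58, adjusted p = 0.00613 and 0.0288). With the negative-control median as a covariate Cyp7a1 passed (2.67, adjusted p = 0.0269) and Cyp8b1 did not (1.67, adjusted p = 0.0567). None of 16 genes of cholesterol synthesis passed limma's test, with 5 at an unadjusted p under 0.05 and a median of -0.33. The lowest adjusted p were for Pmvk, a kinase of the mevalonate pathway (difference 1.03, adjusted p = 0.144), and for Nsdhl, a late enzyme (-0.93, adjusted p = 0.15).

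In carbohydrate metabolism, 4 genes of the glucose and glycogen lists passed, 2 higher and 2 lower at night. Pdk4, the kinase that switches off pyruvate dehydrogenase, rose from 7.32, 6.93 and 6.20 to 9.15, 9.53 and 9.98, by 2.74 (SE 0.51, adjusted p = 0.0338), or 6.67-fold. Its groups lay far apart, yet the call was lost with any of 8 arrays left out (adjusted p up to 0.147, without CD ZT18 replicate 3). It was the 1 call among 18 genes of glucose uptake, glycolysis and gluconeogenesis and the 1 among 23 fasting genes driven by PPARα. Ppp1r3b, the subunit that brings protein phosphatase 1 to glycogen, rose from 9.83, 9.08 and 8.15 to 11.89, 10.96 and 11.05, by 2.28 (SE 0.44, adjusted p = 0.0384), and lost its call with any of 13 arrays left out (up to 0.119, without CD ZT6 replicate 2). Ugp2, which makes UDP-glucose for glycogen, fell by 1.15 (SE 0.16, adjusted p = 0.00658), from 13.53, 13.35 and 13.20 to 12.52, 12.27 and 11.84. Phka2, the liver subunit of phosphorylase kinase, fell by 0.75 (SE 0.15, adjusted p = 0.0463) and lost the call with any of 17 arrays left out (up to 0.138, without CD ZT6 replicate 1). Of 14 glycogen genes 1 rose, 2 fell and 11 did not pass.

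Of 17 genes of mitochondrial fatty acid oxidation and ketogenesis, Bdh1, the enzyme that turns acetoacetate into β-hydroxybutyrate, was the 1 that passed, and it fell by 0.85 (SE 0.13, adjusted p = 0.00858). None of 24 genes of fatty acid synthesis passed limma's test, with 4 at an unadjusted p under 0.05. Of the 24, 1 had the same value on every array and could not show a change. In the NAD+ pathway, 1 of 24 genes passed. It was Acmsd, which diverts tryptophan breakdown away from NAD+, and it rose from 7.52, 8.06 and 7.57 to 9.01, 9.01 and 9.23, by 1.37 (SE 0.20, adjusted p = 0.0082). Asl, the argininosuccinate lyase of the urea cycle, rose by 1.35 (SE 0.23, adjusted p = 0.0192) with no overlap of the groups and lost its call without CD ZT6 replicate 1, CD ZT18 replicate 2 or CD ZT18 replicate 3 (up to 0.103). It was the 1 call among 24 genes of amino acid and one-carbon metabolism. Among 32 genes of drug metabolism the call was Ces1d, a carboxylesterase, which rose by 1.27 (SE 0.19, adjusted p = 0.00921), or 0.051 without CD ZT18 replicate 2.

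Genes that answer to hormones and nutrients moved both ways. Serpina7, thyroxine-binding globulin, fell from 11.78, 11.47 and 10.70 to 9.29, 8.54 and 8.54, by 2.52 (SE 0.37, adjusted p = 0.00699). Klf9, a factor induced by thyroid hormone and glucocorticoids, fell by 1.43 (SE 0.28, adjusted p = 0.0422), and with the background block its adjusted p was 0.0623. Tsc22d3 (GILZ), a glucocorticoid target, rose by 1.31 (SE 0.23, adjusted p = 0.0201), so that 2 of the 20 glucocorticoid-responsive genes, Tsc22d3 and Fkbp4, rose and Klf9 fell. The call of Tsc22d3 was lost with any of 4 arrays left out (up to 0.101, without CD ZT6 replicate 1), and that of Klf9 with any of 12 (up to 0.176, without CD ZT18 replicate 2). Ddit4 (REDD1), an inhibitor of mTORC1, rose by 0.78 (SE 0.12, adjusted p = 0.0101, or 0.0604 without CD ZT18 replicate 3) from day values of 4.46, 4.35 and 4.30, which lay below the negative-control medians. Klf10, an early response factor of TGF-β, fell by 1.39 (SE 0.20, adjusted p = 0.0065). Slc30a10, a manganese exporter, rose by 0.88 (SE 0.17, adjusted p = 0.0428), a call lost with any of 13 arrays left out (up to 0.197, without CD ZT18 replicate 2). Ubtf, a factor of ribosomal RNA transcription, fell by 0.46 (SE 0.08, adjusted p = 0.0275), a call lost with any of 4 arrays left out (up to 0.142, without CD ZT18 replicate 2).

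No gene passed limma's test in the lists of oxidative phosphorylation (28 measured, none at an unadjusted p under 0.05), acute-phase proteins and complement (25 measured, 1 at that p), autophagy (20, 2), secreted hepatokines (24, 6), cytokine receptors and JAK-STAT signalling (28, 8) and transport from the endoplasmic reticulum to the Golgi (26, 6). Their medians lay between -0.15 and 0.05. In the acute-phase list 2 genes, and in the hepatokine list 1, had the same value on every array, so no change could be seen in them. The counts at an unadjusted p carry no fold limit, unlike the 4.15% of all clusters given above. Whether any list held a larger share at that p than all clusters was not tested. No marker of another cell type passed either, but the signs were uneven. All 16 markers of Kupffer cells and macrophages, the resident phagocytes of the liver, were lower at ZT18, with a median of -0.43 and 3 at an unadjusted p under 0.05. Of all clusters 54.3% had differences above 0, and whether the signs of the markers depart from that share was not tested. Slc40a1, the iron exporter, was nearest to the threshold with -0.99 (SE 0.21, adjusted p = 0.0593), Lyz2, lysozyme, differed by -1.39 (SE 0.78, adjusted p = 0.846), and Clec4f, a defining marker of Kupffer cells, by -0.19 (SE 0.21, adjusted p = 0.98). The summed linear signal of the 16 ran from 6704 to 11562 at ZT6 and from 4174 to 7580 at ZT18, so the ranges overlap. With 1 array left out, 14 to 16 of the 16 markers were lower. Clec4f differed by -0.50 within the low-background arrays and by 0.15 within the high-background arrays, and Lyz2 by -1.62 and -0.71. The part of array background in these signs was not tested. In whole tissue, fewer such cells and less RNA in each cannot be told apart either. The part of these marker differences in the changes above was not tested. Of 12 sinusoidal endothelial markers 9 were lower (median -0.12), as were 7 of 10 stellate cell and fibroblast markers (median -0.07). Of 7 cholangiocyte markers 3 were lower (median 0.01), and their summed signal ran from 3879 to 7149 at ZT6 and from 2028 to 4111 at ZT18, with the lowest difference for Krt18, a keratin that hepatocytes also express (-1.12, SE 0.28, adjusted p = 0.149). Lymphocyte markers (11 measured) and neutrophil markers (8 measured) had summed signals of at most 227 and 192 on any CD array. Averaged over their members, these sums lie near the negative-control medians. These markers were thus on average near the limit of detection, and their lack of calls cannot decide whether these cells changed.

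The same comparison in obese mice was set beside the CD changes through the difference between the day-to-night changes. No cluster passed this test for HF against CD (lowest adjusted p from limma 0.251) or for HFN against CD (lowest adjusted p 0.337). With an unadjusted p under 0.05 and a log2 fold change beyond 0.32, 5330 clusters (8.08%) met both limits for HF and 3217 (4.88%) for HFN. Because of the fold limit, these are not the shares of all clusters under that p. Array background was unbalanced in this contrast. HF ZT6 replicates 2 and 3 were high-background arrays (Neat1 at 11.09 and 12.96) and no HF ZT18 array was, whereas in CD livers 1 array at ZT6 and 2 at ZT18 were. The HFN arrays were all of low background. The unadjusted count of 5330 for HF against CD was 2659 with the negative-control median as a covariate and 2591 with the background block, and the 3217 for HFN became 3517 and 3532. Without CD ZT18 replicate 1, 181 clusters passed for HF against CD, 44 of them with the higher change in HF. Both CD ZT18 arrays left in that fit were of high background and all HF ZT18 arrays of low background, and the part of this in the 181 was not tested. Of the 30 largest named changes in CD livers, those with the lowest p for HF were Clpx, Chka and Dbp. Clpx rose by 3.42 in HF livers against 1.76 in CD (difference 1.66, SE 0.38, adjusted p = 0.426), and Chka by 3.31 against 2.55 (difference 0.76, SE 0.22, adjusted p = 0.463). Dbp fell by 5.26 in HF livers against 3.99 in CD (difference -1.27, SE 0.37, adjusted p = 0.464). For HFN the 3 were Clpx (difference 1.24, adjusted p = 0.721), Clec2h (1.90, adjusted p = 0.754) and Serpina7 (1.37, adjusted p = 0.77). Clec2h passed in CD livers between day and night, and its differences of -0.90 in HF and -1.28 in HFN livers did not (adjusted p = 0.474 and 0.531), but the contrast between groups was not significant, and these misses do not show that the groups respond alike. Both contrasts share the 6 CD arrays. Of the 248 CD clusters, 101 (40.7%) also passed in HF livers in the same direction, which is 17.7% of the 571 (0.866% of all) that passed there, and 68 (27.4%) in HFN livers, which is 42% of the 162 (0.246% of all) that passed there.

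**Figure D5:**
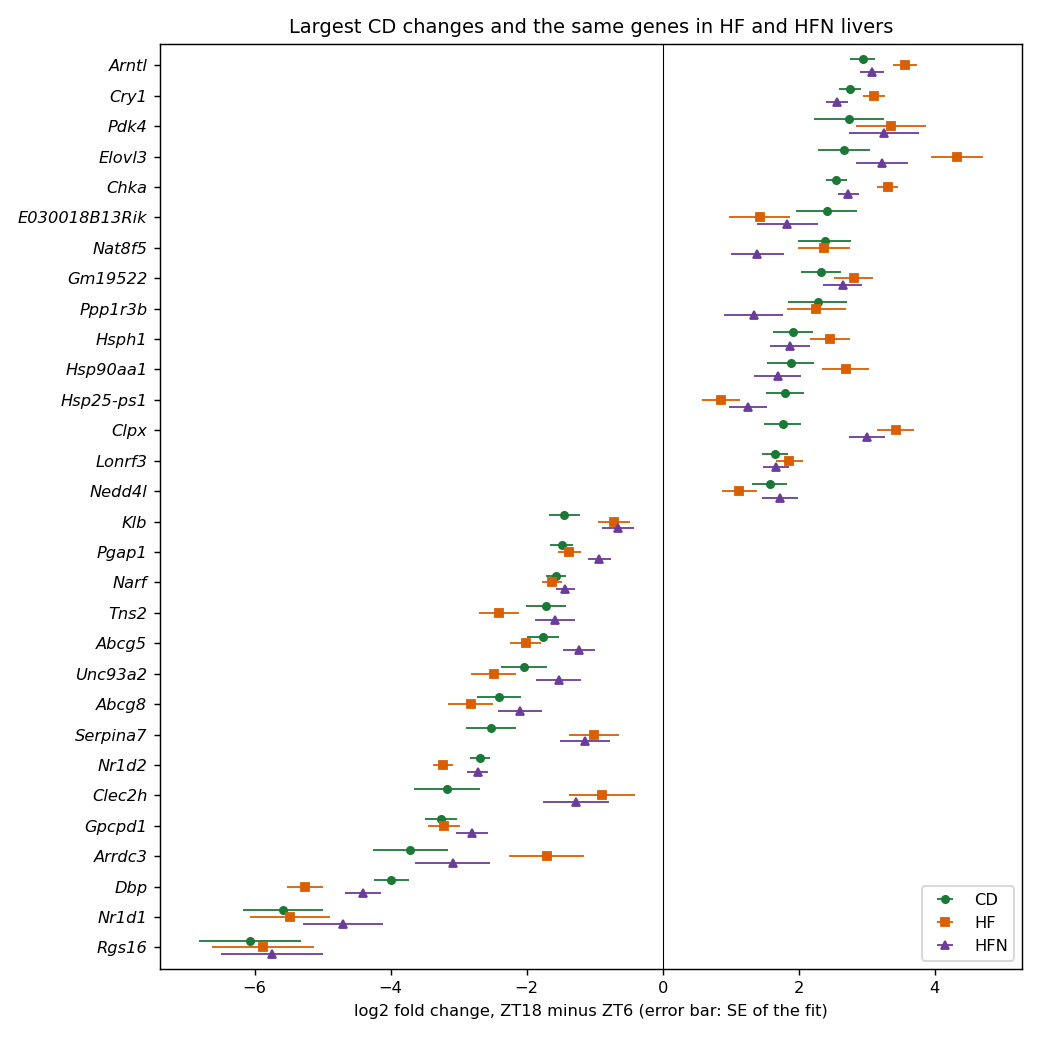
Log2 fold change of ZT18 over ZT6 (horizontal axis) for the 15 largest rises and 15 largest falls among named genes that passed in CD livers, with the same genes in HF and HFN livers. Error bars are the SE of the fit (n = 3 livers per group and time). The genes were chosen by their CD change, which favours large CD values, and no difference between groups passed the test.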

How the data were processed

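Liver RNA was measured on 18 Clariom D arrays. The deposited values are log2 signals, which the authors made in the Transcriptome Analysis Console with default settings. The sources used here do not state how probes were summarized or which genome build was used. After 6732 control probe sets were set aside from 72688 entries, 65956 transcript clusters were tested. Names came from GEO's platform annotation, brought up to date through RefSeq (GRCm38.p6), with 31292 clusters given 1 symbol, 1522 several and 33142 none. A symbol with several clusters (439 symbols) is represented by the brightest. All 18 arrays entered 1 fit of limma 3.58.1 (R 4.3.3), which estimated a mean for each group from the values as deposited, with 12 residual degrees of freedom plus 2.27 from the empirical Bayes step, and p-values were adjusted over all clusters. Fitting all groups lets the 12 HF and HFN arrays inform the spread. A single gene with 3 arrays against 3 cannot reach an exact permutation p under 0.1. The labels call the arrays biological replicates. The named genes were the 15 largest rises and 15 largest falls past the test, the members of the clock and heat shock lists, up to 4 called members of each other list (where none passed, its 2 members of lowest p), Neat1, Malat1, and for each contrast with obese mice the 3 of lowest p. Some members that did not pass are given as counts and ranges only. The members and the 43 gene lists were chosen with earlier results of these data known. Tested on simulated data for this comparison over 65956 clusters, the fit called 14% of 50 changes of 0.5 on the log2 scale, 74% at 1, 96% at 2 and 94% at 3, with 9 false calls. These rates belong to the simulation alone. Whether they hold for arrays that differ in background, as the CD arrays do, or for dim clusters was not tested. Alternatives were other thresholds, a replicate block, a filter on dim clusters, quantile normalization, an intensity trend, the negative-control median as a covariate, the 3 high-background arrays left out, the CD arrays alone, the mean of a symbol's clusters and each array left out. The block for array background was added after the data were seen. The number of arrays limits the precision.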

Additional observations from a re-analysis of the deposited data

How the results depend on the processing

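For the CD comparison, 248 clusters passed, and between 194 and 357 did so with a 1.3-fold minimum, no fold minimum, the brightest clusters alone, quantile-normalized values, a robust prior with an intensity trend, the replicate block or the background block. An unadjusted p gave 2738, the negative-control covariate 417 (237 of the 248 among them), the fit without the 3 CD arrays of highest negative-control median 69, and the CD arrays alone 1. The cause of these moves was not tested, except that the last 2 fits hold fewer arrays. Leaving out 1 array gave 132 to 575. Here the counts at an unadjusted p keep the fold limit, for this and the other contrasts. The share of calls higher at ZT18 was 43.1%, and 49.3% with quantile normalization, 51% with the trend, 34.8% with the covariate, 55.1% without the 3 arrays and 56.5% without CD ZT18 replicate 1. For HF against CD, where none passed, an unadjusted p gave 5330 (2659 with the covariate and 2591 with the background block) and leaving out 1 array 0 to 181. In that contrast 2 of 3 HF ZT6 arrays and no HF ZT18 array were of high background. For HFN against CD an unadjusted p gave 3217, the fit without the 3 arrays 7, and leaving out 1 array 0 to 4. Per1 turned sign with the covariate (-0.10), the background block (-0.077) and without CD ZT6 replicate 1, with a range of -0.11 to 0.50 when 1 array was left out. Hlf turned sign without CD ZT6 replicate 3, with a range of -0.31 to 0.016.

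Replicate numbers are shared by the groups, and the deviations of same-numbered CD livers from their group means correlated at 0.57, -0.21 and 0.53. CD ZT6 replicate 3 also correlated at 0.47 with CD ZT18 replicate 2, and both are high-background arrays. Since array background enters these correlations, they cannot decide whether the numbers pair the mice. With the replicate block 271 clusters passed, 218 of the 248 among them, and none for HF or HFN against CD. Of the 51 genes named by rule that passed, 27 kept the call with any 1 array left out, 48 with the background block, 49 with the covariate, 45 with the replicate block and 17 without the 3 high-background arrays. Signals near the negative-control medians, as for Rgs16, Nr1d1, Bhlhe41 and Ciart at night, and those at the ceiling of 19.93 limit how large a change can be measured.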

Other observations

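Some genes outside the lists, chosen after their values were seen, also passed the CD test. Ddc, the aromatic amino acid decarboxylase, rose from 9.96, 9.55 and 9.23 at ZT6 to 11.60, 10.74 and 10.69 at ZT18, by 1.43 on the log2 scale (SE 0.24, adjusted p = 0.0151 from limma). Fmo5, a flavin monooxygenase of hepatocytes, rose by 1.40 (SE 0.20, adjusted p = 0.00655), and Esr1, the estrogen receptor α, by 0.65 (SE 0.11, adjusted p = 0.022). St6gal1, which adds sialic acid to glycoproteins, fell by 1.24 (SE 0.15, adjusted p = 0.00199). Usf2, a factor that binds E-boxes, fell by 0.98 (SE 0.17, adjusted p = 0.0201), and Gpd2, the mitochondrial glycerol phosphate dehydrogenase, by 0.98 (SE 0.17, adjusted p = 0.0201). Pex3 and Pex19, partners that insert peroxisomal membrane proteins, fell by 0.59 and 0.63 (SE 0.12 and 0.09, adjusted p = 0.0494 and 0.0065). With 1 array left out, the calls of Fmo5, St6gal1 and Pex19 held for every array, and those of Pex3, Esr1, Gpd2, Usf2 and Ddc were lost for 15, 5, 4, 3 and 2 arrays, with adjusted p up to 0.207, 0.102, 0.109, 0.103 and 0.0671.

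Of the 248 clusters, 44 had no entry in the table of names, 30 of them higher at ZT18 and 14 lower. TC0300000864.mm.1 rose from 7.99, 8.52 and 8.51 to 11.14, 11.69 and 11.73, by 3.18 (SE 0.16, adjusted p = 8.22e-07), the lowest adjusted p of the comparison. TC0400001858.mm.1 rose by 4.41 (SE 0.52, adjusted p = 0.00174), and its night values of 8.23, 10.79 and 10.55 were highest on the high-background arrays. TC1500002286.mm.1 rose by 3.97 (SE 0.61, adjusted p = 0.00968) with night values of 5.87, 9.65 and 8.38, again highest on the high-background arrays. Its differences in HF and HFN livers were -0.07 and 0.35 (SE 0.61 each), and neither contrast with CD passed (adjusted p = 0.421 and 0.584). Crybg3 was represented by 2 clusters past the test, the brighter of which rose by 1.24 (SE 0.16).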
